A study of Homo sapiens with 42 samples.

Results

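Solitary loops are chromatin loops whose anchors stand away from the anchors of every other listed loop. A loop was called solitary when neither of its anchor starts lay within 50 kb of an anchor start of another listed loop on the same chromosome, and 213 of the 33914 listed loops met this rule. A further 3854 loops had 1 isolated anchor and 29847 had none. The rule used positions only, so the contact counts of these loops played no part in choosing them.

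The loops were measured by in situ Hi-C, in which DNA is crosslinked and cut and neighbouring ends are ligated, so that each sequenced junction is a contact between genome positions. The cells were wild-type K562, an established human leukemia line, kept in RPMI medium with serum and treated with 25 nM PMA, a phorbol ester that activates protein kinase C and drives these cells toward a megakaryocyte-like state. Contacts were counted at 0 h, 6 h and 72 h of treatment, in 4 biological replicates per time, and medium was changed on the days in between. The labels do not say whether the replicates came from separate cultures, so p-values measure the spread between these libraries. The 0 h libraries are the comparison group, and all groups share the line, so every result describes 1 aneuploid leukemia line and not normal megakaryocyte precursors. Hi-C reads no RNA, so the cell state was not checked by marker expression.

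As background, most loops of mammalian genomes form where cohesin extrudes DNA until it meets CTCF bound at convergent sites, and others join promoters to enhancers. Strong anchors are commonly used by several loops, which gives nested loops and corner-sharing networks along a chromosome. A loop with no neighbour at either anchor shares no anchor with another listed loop, though it can still lie inside or around one.

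Depth ranged from 736929 to 1472197 contacts in listed loops per library, of which 4493 to 9141 lay in solitary loops. The 72 h replicates 3 and 4 showed no difference beyond sampling noise over loops (a chi-square test of their counts gave p 0.36) and, unlike the remaining 72 h pairs, were counted as 1 sample in each mean, so n = 3 at 72 h and n = 4 at the other times. Replicates 3 and 4 were also the closest pair at 0 h and at 6 h. Their chi-square per degree of freedom was 1.02 at each, against 1.09 to 1.27 for the other pairs of those times. They were kept apart there because the chi-square test gave p 0.0205 and 0.00589, so n = 4 may overstate the independent samples. The fold changes, SEs and adjusted p-values of single loops come from a fit that kept all 12 libraries apart. Averaging 72 h replicates 3 and 4 narrows the SD at 72 h for single loops at which they differ, so those SDs can understate the spread of the libraries. Replicates 1 and 2 had 3 technical replicates and replicates 3 and 4 had 2, each sequenced 2 times, and these 2 sets of libraries are also given apart below.

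Promoters that lie in solitary anchors give a view of the sequence at these loops. The RefSeq promoter table of GRCh38.p14 (250 bases before and 50 bases after a gene's start) held 47 promoters of 39 protein-coding genes within the 426 solitary anchors. The core of the CTCF site, spelled CCA, any 2 bases, AG, any 2 bases, GGC and searched on both strands, was found in 0 of these 47 promoters, in 3.14% of the 5376 promoters at all listed anchors and in 2.52% of all 22198 promoters. The AP-1 letters TGANTCA, which read the same on both strands and were added to the search later, apart from the CTCF core, were found in 3 of the 47 (6.38%), in 5.34% of those at all anchors and in 6.15% of all promoters. The median number of CpG dinucleotides was 24 in solitary anchors, 23 at all anchors and 21 over all promoters. Absence of these letters says only that they are not in these windows, and 10-kb anchors extend far beyond them.

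A few sequences are shown because loops that changed with PMA start there, with CpG dinucleotides in capitals and each read 5′ to 3′ along its gene's strand. The MALL entries are 2 separate starts in the anchor of loop3977, the shortest of the loops that rose at 72 h: chr2:110115773-110116072 on the minus strand with 24 CpG, and chr2:110118090-110118389 on the minus strand with 0 CpG. The others lie in anchors of loops that fell: SYNCRIP in loop14288 at chr6:85643821-85644120 on the minus strand with 34 CpG, MIGA2 in loop19781 at chr9:129036376-129036675 on the plus strand with 23 CpG, and CRLF3 in loop29549 at chr17:30824643-30824942 on the minus strand with 44 CpG.
MALL, CpG-rich start: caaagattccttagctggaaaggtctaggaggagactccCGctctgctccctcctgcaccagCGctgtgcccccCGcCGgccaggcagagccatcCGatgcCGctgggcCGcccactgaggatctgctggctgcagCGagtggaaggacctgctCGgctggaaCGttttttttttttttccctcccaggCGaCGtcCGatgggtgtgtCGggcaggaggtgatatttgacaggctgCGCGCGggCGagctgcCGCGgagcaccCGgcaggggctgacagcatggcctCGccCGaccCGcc
MALL, start without CpG: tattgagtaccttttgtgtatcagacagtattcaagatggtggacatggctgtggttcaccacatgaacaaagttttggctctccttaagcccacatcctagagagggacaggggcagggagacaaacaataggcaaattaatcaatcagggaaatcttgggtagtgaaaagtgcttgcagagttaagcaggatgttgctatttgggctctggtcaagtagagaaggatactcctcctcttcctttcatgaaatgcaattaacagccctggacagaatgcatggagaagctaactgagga
SYNCRIP: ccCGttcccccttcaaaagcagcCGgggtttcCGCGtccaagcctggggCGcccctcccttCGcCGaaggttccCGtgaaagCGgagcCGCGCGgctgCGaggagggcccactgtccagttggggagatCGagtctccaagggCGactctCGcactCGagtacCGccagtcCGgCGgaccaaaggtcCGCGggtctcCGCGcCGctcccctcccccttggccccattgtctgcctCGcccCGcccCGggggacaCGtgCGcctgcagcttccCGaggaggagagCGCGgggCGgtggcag
MIGA2: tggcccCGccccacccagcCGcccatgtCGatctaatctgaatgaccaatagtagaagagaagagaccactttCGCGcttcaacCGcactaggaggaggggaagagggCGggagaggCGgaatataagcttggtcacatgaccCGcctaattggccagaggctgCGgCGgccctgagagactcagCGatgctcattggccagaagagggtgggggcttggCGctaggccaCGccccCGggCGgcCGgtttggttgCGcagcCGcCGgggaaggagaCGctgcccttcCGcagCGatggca
CRLF3: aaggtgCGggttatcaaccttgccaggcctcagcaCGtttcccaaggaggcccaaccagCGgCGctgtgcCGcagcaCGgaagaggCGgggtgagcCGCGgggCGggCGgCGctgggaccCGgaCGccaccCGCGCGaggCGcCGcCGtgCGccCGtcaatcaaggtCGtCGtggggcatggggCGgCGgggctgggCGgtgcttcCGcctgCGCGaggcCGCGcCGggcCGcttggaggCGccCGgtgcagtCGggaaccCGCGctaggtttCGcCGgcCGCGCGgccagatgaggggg
The 4 CpG-bearing sequences hold between 23 and 44 CpG, each above the median of all promoters, and none of them holds either motif.

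Solitary loops were more frequent than listed loops in general at both ends of the range of lengths. Their median length was 510 kb, against 440 kb over all listed loops, with quartiles of 160 kb and 1340 kb against 210 kb and 920 kb. The shortest class, up to 100 kb, held 37 of them (17.4%, against 9.76% of all loops), and 74 spanned at least 1000 kb (34.7%, against 22.7%). The classes of 200 to 400 kb and 400 to 800 kb (upper limit included) held 11.7% and 18.3% of solitary loops, against 22.4% and 24.2% of all loops. These shares are descriptions of 1 list and were not tested.

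Contact levels followed length. At 0 h, the median solitary loop of up to 100 kb had 82.1 normalized contacts and that of 800 to 1600 kb had 2.99, where a normalized contact is 1 in 1000000 of a library's tested contacts after TMM scaling. Against loops within 10% of their own length, the median solitary loop had 0.638 times the median contact level, with quartiles of 0.425 and 1.04. The same ratio was 0.865 for loops with 1 isolated anchor and 1.02 for loops with none. Counts were scaled by library only, so ratios between loops are not corrected for copy number in this aneuploid line. As a ratio, the gap to all loops was widest from 400 to 800 kb, where the median was 5.64 normalized contacts for solitary loops and 12.8 for all listed loops, and it was small at 200 to 400 kb, at 28.4 and 27.7.

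**Figure D1:**
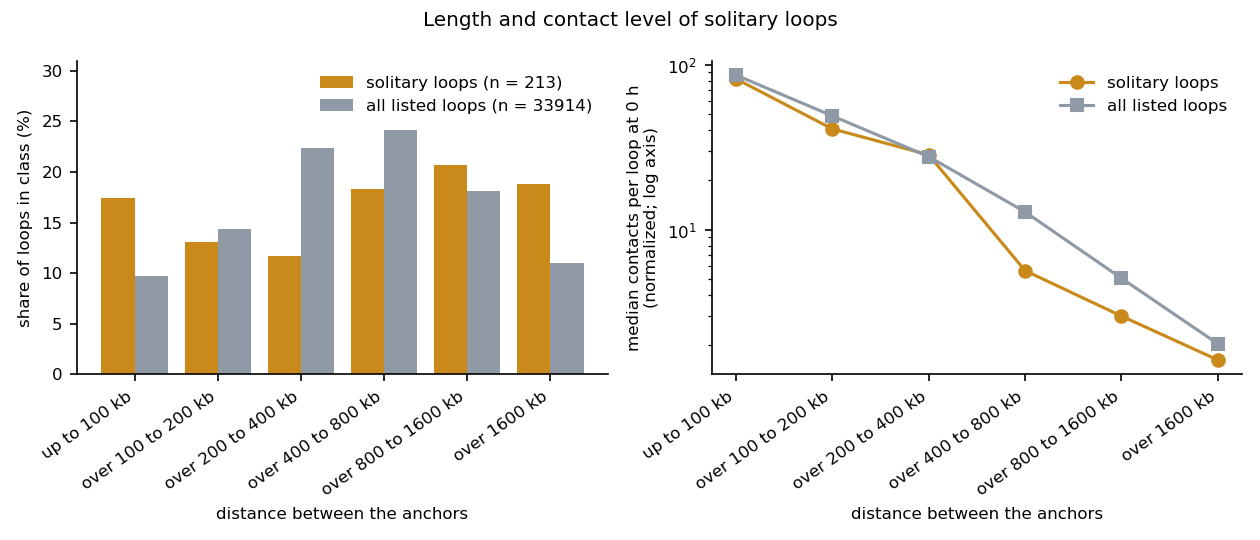
Left, the share of solitary loops and of all listed loops in each class of distance between the anchors, as bars in percent. Right, the median normalized contacts per loop at 0 h in the same classes on a log axis. Solitary loops exceed the list's share up to 100 kb (17.4% against 9.76%) and over 1600 kb (18.8% against 11%), and their median level is 5.64 against 12.8 normalized contacts at 400 to 800 kb.

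The low levels decided which loops could be tested. The filter of edgeR, a package for count data, kept 105 of the 213 solitary loops (49.3%), against 71.2% of all listed loops. The 105 had a median length of 160 kb and the 108 below the filter one of 1305 kb, and the latter had a median of 2.51 normalized contacts at 0 h. A loop can pass this filter through the time at which it is high, so counts over the 105 do not speak for the 213. Summed over the 108 loops below the filter, contacts per 1000000 listed contacts averaged 316 ± 44.6 (SD, n = 4) before treatment, 386 ± 55.8 after 6 h (SD, n = 4) and 394 ± 24.5 after 72 h (SD, n = 3). All loops below the filter together held 3.46%, 4.13% and 4.78% of contacts at these times.

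The distance to the next anchor was mostly just past the rule's limit. Anchors lie on a grid of 10 kb, so the nearest possible distance was 60 kb, at which 54 solitary loops lay, followed by 37 at 70 kb and 29 at 80 kb. The median was 80 kb, 67 loops were more than 100 kb from any other anchor start, and the farthest, loop20339 on chromosome 10, was 1050 kb away. At the limit, the 3 most contacted loops just inside (loop21816, loop19781 and loop28937) had 143 to 165 normalized contacts at 0 h. The 3 just outside (loop24665, loop24664 and loop31151, nearest at 50 kb) had 156 to 206.

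Isolated anchors did not mean an empty interval. Another listed loop spanned 125 of the 213 solitary loops from outside (58.7%, against 84.2% of all listed loops), and 55 held other loops between their anchors (25.8%, against 71.1%). No other loop overlapped the interval of 66 (31%, against 0.684% of all listed loops), a share that the rule itself pushes up. Among the loops below the filter, 82 of 108 were spanned and 52 held other loops, and among those tested 43 of 105 were spanned and 3 held others.

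Genes were sparser at solitary anchors than over the list. An outer end of a protein-coding gene lay in an anchor of 42 of the 213 loops (19.7%, against 28.6% of all listed loops). Such ends lay in 53 of the 426 anchors (12.4%, against 16.6%). The median distance from a solitary anchor to the nearest gene end was 81.3 kb, against 26.6 kb over all anchors. The tested loops had gene ends in 50 of 210 anchors (23.8%, against 20.6% for all tested loops) and those below the filter in 3 of 216 (1.39%, against 6.72% for all loops below it). Starts and ends are counted together here, because the gene table gives no strand. Further starts inside a gene's body were not counted, such as those of CELF1 in loop21813 and CDH12 in loop11062.

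Chromosomes contributed unequally. Chromosome 2 held 27 solitary loops, 12.7% of them against 4.96% of all listed loops, and chromosome X held 21, 9.86% against 3.64%. As a share of each chromosome's own loops, chromosome 21 was highest at 2.59% (9 of 348), followed by 18 at 2.17%, 9 at 1.74%, X at 1.70% and 2 at 1.61%, while chromosome 13 had 1 of 1638. On X, 4 of the 21 passed the filter.

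**Figure D2:**
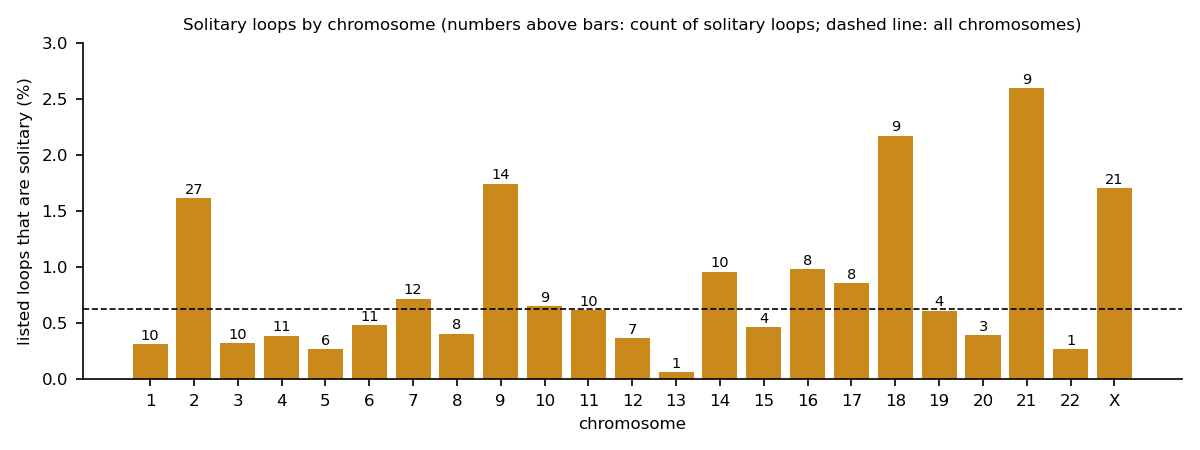
Share of each chromosome's listed loops that were solitary, in percent, as bars from 0, with the number of solitary loops above each bar and the share over all chromosomes (0.628%) as a dashed line. Chromosomes 21, 18, 9, X and 2 stand above 1.5%, and chromosome 13 has 1 solitary loop.

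The gene lists tied to the treatment did not meet solitary loops. Lists were looked up for megakaryocyte and platelet genes, erythroid genes, AP-1 and immediate early genes, haematopoietic transcription factors, protein kinase C genes, cohesin and CTCF genes, and genes of other blood lineages. None of these lists had a gene end in a solitary anchor or within 100 kb of one. Solitary loops are 0.628% of the list and each of these 7 gene lists had ends at only 5 to 32 loops in all.

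A list of developmental transcription factors and one of long neuronal and adhesion genes met 6 solitary loops in or within 100 kb of an anchor. SATB1, a chromatin organiser of lymphoid cells, ended 94.4 kb from loop5090, which had 12.4 normalized contacts at 0 h and was not past the threshold at 6 h or 72 h. CDH2, which encodes N-cadherin, had an end in an anchor of loop30234. NLGN1 and NTM with OPCML, which encode synaptic and neural adhesion proteins, and the cadherin genes CDH10 and CDH12 had ends near loop7738, loop22861, loop11062 and loop11057. A promoter of CDH12 also lay in an anchor of loop11062. The 5 loops other than loop5090 had 1.51 to 4.82 normalized contacts at 0 h and were too low for a test.

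The question at 72 h was which loops differ after the cells had been in PMA for days. Of the 105 tested solitary loops, 37 had changed contact counts against 0 h at an adjusted p under 0.05 (quasi-likelihood test of edgeR), or 35.2%, where 33.6% of all 24132 tested loops changed. Of these, 12 rose and 25 fell. The share that rose was 11.4%, where it was 16.7% over all tested loops, and the share that fell was 23.8%, where it was 16.9%. The total share was near that of the whole list, and the difference in direction was not tested. The split moved with the scaling: it was 17 and 22 with scaling to total counts and 17 and 20 with an offset for loop length. Within replicates 1 and 2 alone 11 rose and 10 fell, and within replicates 3 and 4 alone 5 rose and 16 fell. With 72 h replicates 3 and 4 summed into 1 library, 38 changed. The test of DESeq2, another package for count data, called 26, of which 8 rose and 18 fell.

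Among the loops called, the sizes differed between the directions. The median log2 fold change was 0.87 among the 12 that rose and -0.48 among the 25 that fell, beside 0.75 and -0.53 over all loops called. Over the 105, it was -0.05, with quartiles of -0.35 and 0.30. A change of at least 1.5-fold was reached by 10 of the loops that rose and 5 of those that fell. The loops that rose had a median of 26.2 normalized contacts at 0 h and those that fell 106. Over all loops called, these medians were 20.2 and 67.4. Sizes were not compared at a like contact level, so direction and level are not separated here. In 39 of the 105 (37.1%), the libraries of 72 h and 0 h did not overlap, where this held for 28.3% of all tested loops, and 72 h was above in 16 of them and below in 23.

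The loops that rose and those that fell were unlike in length and isolation. The 12 that rose had a median length of 305 kb and their nearest neighbouring anchor at a median of 150 kb. Those that fell had medians of 70 kb for both measures. By length, 3 rose and 14 fell of 37 tested loops up to 100 kb, 0 rose and 8 fell of 28 over 100 and up to 200 kb, and 9 rose and 3 fell of 40 over 200 kb. Over all tested loops the share that fell also became smaller with length, at 36.3%, 24.9% and 10.4% in these 3 classes, against 37.8%, 28.6% and 7.5% of the solitary loops. The share that rose was 12.4%, 16.3% and 17.7% over all tested loops, against 8.11%, 0% and 22.5% of the solitary loops.

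Among the 72 tested loops with a neighbour at 60 to 100 kb, 4 rose and 20 fell, and among the 33 more isolated ones 8 rose and 5 fell. The median log2 fold change was -0.10 in the first set and 0.08 in the second. Length and isolation were not separated in this count, and their difference was not tested. Gene ends lay in an anchor of 13 of the 25 that fell and 5 of the 12 that rose, and of the 68 not past the threshold 21 had one. Over all tested loops, 48.6% of those that fell and 26.8% of those that rose had one.

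**Figure D3:**
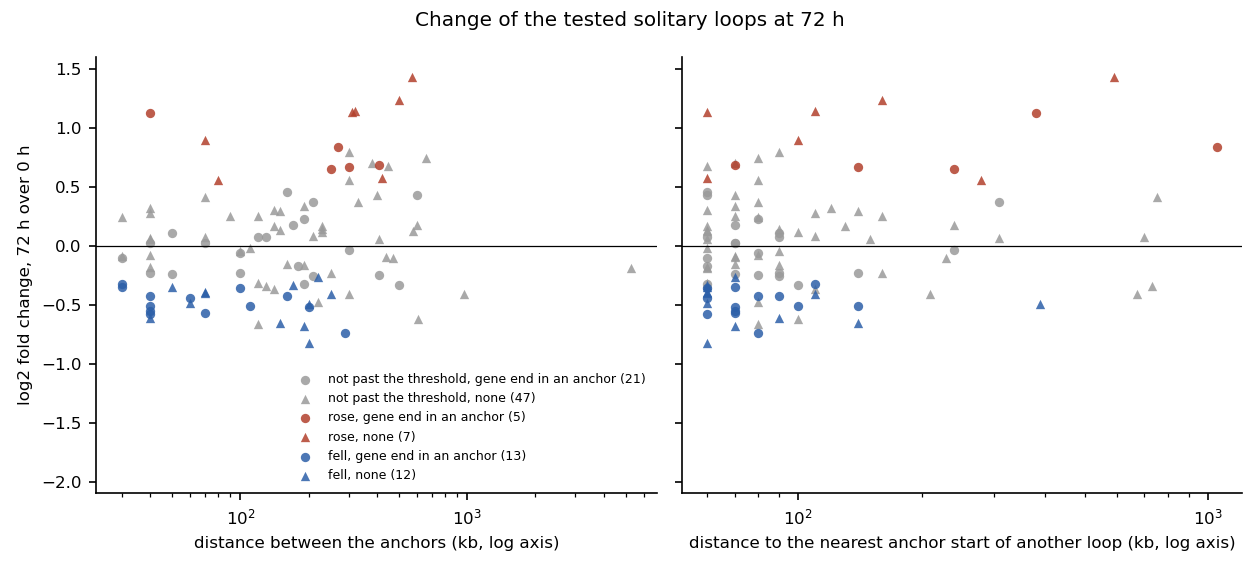
Log2 fold change at 72 h over 0 h of the 105 tested solitary loops against the distance between their anchors (left) and the distance to the nearest anchor start of another loop (right), both on log axes. Red marks rose, blue marks fell (edgeR, adjusted p under 0.05) and grey did not pass; circles have a gene end in an anchor. The 12 that rose had a median nearest neighbour at 150 kb and the 25 that fell one at 70 kb.

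Loop3990 on chromosome 2 had the highest fold at 72 h. It spans 570 kb between chr2:113970001-113980000 and chr2:114540001-114550000, the latter inside DPP10, which encodes an auxiliary subunit of potassium channels, and its nearest neighbouring anchor lies 590 kb away. Its normalized contacts were 6.52, 9.49, 11.3 and 10.2 in the 0 h libraries, 6.86, 11.2, 11.3 and 4.83 at 6 h, and 24.8, 28.1, 16.6 and 27.7 at 72 h. All 72 h libraries lay above all others, while 6 h and 0 h overlapped. The raw counts behind these values were 9 to 10 at 0 h and 16 to 31 at 72 h. The log2 fold change was 1.43 at 72 h (SE 0.268, adjusted p 7.46e-06) and -0.08 at 6 h (adjusted p 0.938).

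Loop16213 lies within AUTS2 on chromosome 7, a long gene of neural development, with both 10-kb anchors (from 70190001 and from 70690001) inside the gene body. It gave 7.24, 7.59, 10.0 and 10.2 normalized contacts at 0 h, 7.84, 8.41, 5.66 and 13.3 at 6 h, and 15.9, 23.1, 19.8 and 22.3 at 72 h. Every 72 h library stood above every earlier one. Raw counts were 8 to 10 at 0 h, 4 to 11 at 6 h and 18 to 25 at 72 h, and 1 library at 0 h and 1 at 6 h reached the level of the filter, so the loop was tested through its 72 h libraries, the time at which it is high. At 72 h the log2 fold change was 1.23 (SE 0.284, adjusted p 0.00026), and from 6 h to 72 h it was 1.18 (adjusted p 0.00148).

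Loop29009 on chromosome 16 has no gene at its anchors, the nearest gene ends being those of DYNLRB2 at 10.7 kb, a dynein light chain gene, and CDYL2 at 25.0 kb, a chromodomain gene. Its normalized contacts were 32.6, 30.4, 33.9 and 34.1 at 0 h, 45.1, 43.9, 50.9 and 29.0 at 6 h, and 63.7, 71.3, 82.2 and 71.4 at 72 h. The 6 h libraries were higher than 0 h in 3 of 4 and the 72 h libraries were the highest. The fold change was 1.14 on the log2 scale at 72 h (SE 0.152, adjusted p 4.79e-10) and 0.37 at 6 h (adjusted p 0.208).

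Loop3977 on chromosome 2 joins the MALL promoters printed above to an anchor 40 kb away. MALL encodes a membrane-raft protein. Normalized contacts were 34, 52.2, 38.9 and 39.8 at 0 h, 62.7, 68.2, 72.2 and 70 at 6 h, and 102, 97.4, 80.1 and 77.7 at 72 h. The times did not overlap, and each later time was higher. Log2 fold changes against 0 h were 0.73 at 6 h (SE 0.153, adjusted p 0.000593) and 1.12 at 72 h (SE 0.14, adjusted p 2.56e-11), and 6 h to 72 h added 0.39 (adjusted p 0.0188). At 0 h it stood at 0.38 times the median level of loops of its length.

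Loop20339, the most isolated, ends at GDF10, which encodes a ligand of the TGF-beta family. Its values were 33.3, 40.8, 42.7 and 54.6 normalized contacts at 0 h, 58.8, 64.5, 48.1 and 56.7 at 6 h, and 78.7, 84.3, 66.6 and 68.7 at 72 h. The 72 h libraries lay above all others, and 6 h overlapped 0 h in 1 library. It rose by 0.47 at 6 h (adjusted p 0.0495, next to the threshold) and by 0.84 at 72 h on the log2 scale (SE 0.144, adjusted p 1.06e-06).

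A further 4 loops rose at 72 h and were not past the threshold at 6 h. Loop17115 on chromosome 8, a 70-kb loop with MCPH1, a gene of chromosome condensation, as the gene nearest to each anchor, went from 29.9 ± 6.49 normalized contacts at 0 h (SD, n = 4) to 54.9 ± 3.17 at 72 h (SD, n = 3, log2 fold change 0.90). Its 72 h libraries were spread more widely than this SD, at 58.4, 52.2, 44.7 and 63.4. Loop29331 ends at MYOCD, which encodes a coactivator of serum response factor in muscle, and went from 19.2 ± 3.79 to 28.8 ± 4.02 (log2 0.69). Loop3979 ends at ACOXL, an acyl-CoA oxidase-like gene, and went from 22.6 ± 6.10 to 36.1 ± 1.15 (log2 0.67), with 72 h libraries from 31.2 to 38.5. Loop28582 joins SCNN1G, a subunit gene of the epithelial sodium channel, to COG7, a Golgi tethering gene, and went from 48.2 ± 3.02 to 79.4 ± 14.2 (log2 0.65).

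All 4 libraries of 72 h stood above those of 0 h in each of these loops. The rise of loop29331 was lost with DESeq2 (adjusted p 0.0925) and without 0 h replicate 1 (adjusted p 0.0964 in edgeR). That of loop3979 was lost likewise, with adjusted p 0.0755 and 0.0523. Chromosome 2 held 4 of the 12 loops that rose (loop3977, loop3979, loop3990 and loop4082). It also held 17 of the 105 tested solitary loops, and an excess of rises on it was not tested. The remaining 2 of the 12 loops that rose were loop28601 and loop21230. Loop28601 reaches into HS3ST4, a heparan sulfate sulfotransferase gene (log2 0.58). Loop21230 lies in TCERG1L (log2 1.14). The 72 h and 0 h libraries of loop21230 overlapped, and it had 0 of 4 libraries at the filter's level at 0 h.

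**Figure D4:**
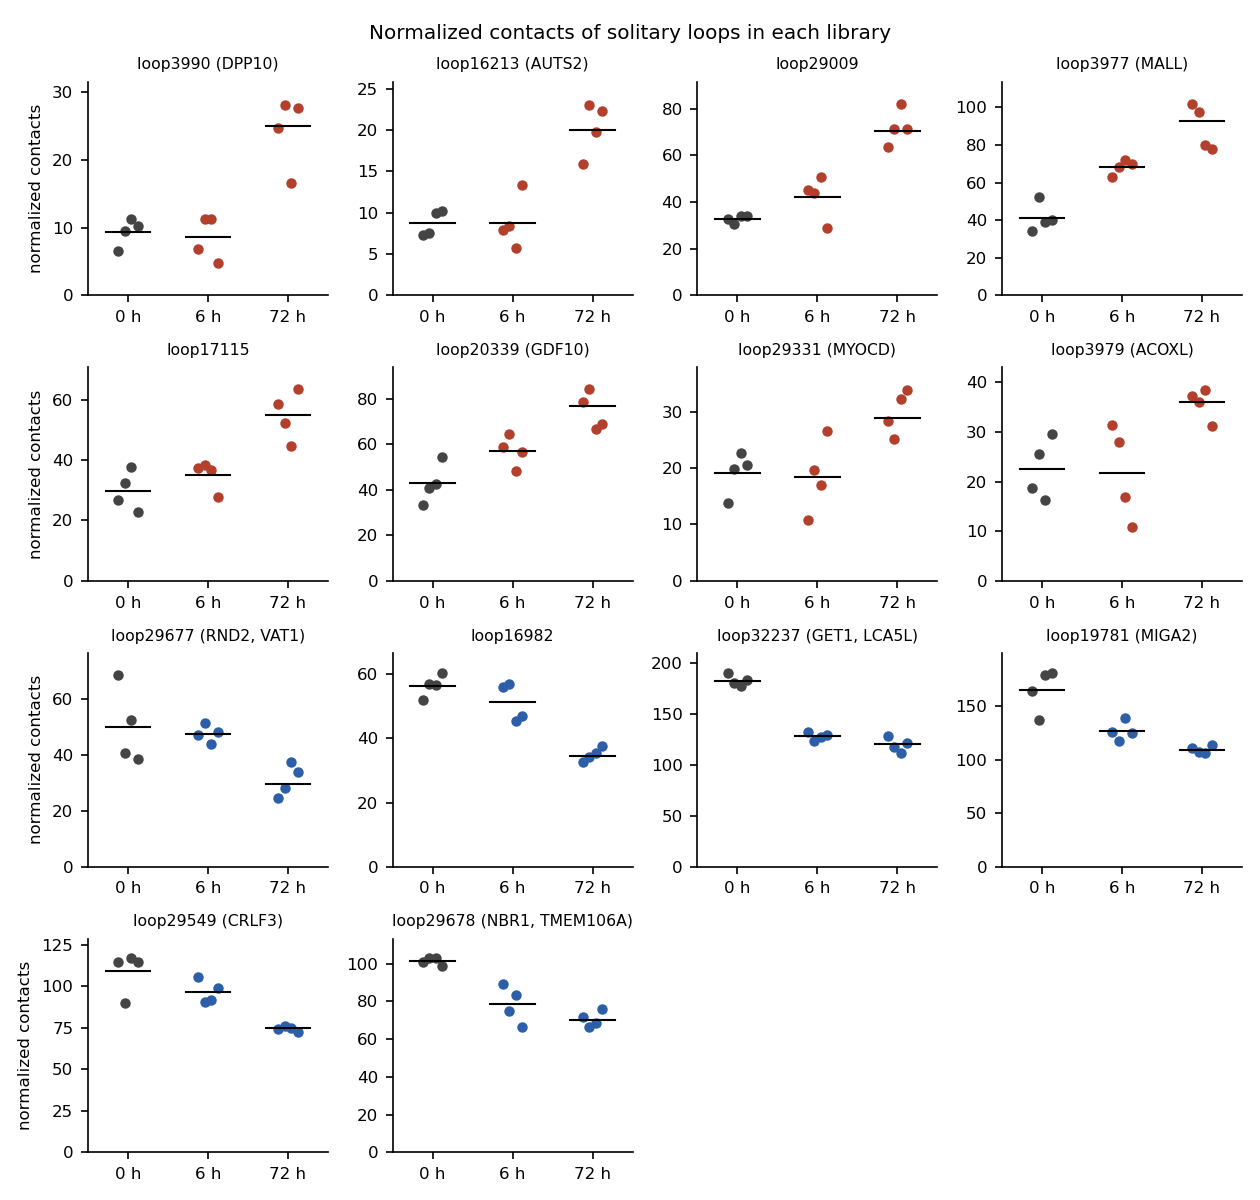
Normalized contacts in each library for the 8 solitary loops with the highest positive (red) and 6 of the 8 with the largest negative (blue) log2 fold change at 72 h among loops past the threshold whose 72 h and 0 h libraries do not overlap; black points are 0 h and lines are means. Every panel starts at 0. Loop3990 goes from 9.38 at 0 h to 25.0 at 72 h, and loop32237 from 183 to 121.

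Among the loops that fell, loop29677 on chromosome 17 had the greatest loss for which the libraries did not overlap. Its left anchor holds the ends of RND2, a small GTPase gene, and VAT1, a vesicle membrane protein gene. Normalized contacts were 68.8, 40.8, 52.7 and 38.7 at 0 h, 47.1, 51.4, 43.9 and 48.3 at 6 h, and 24.8, 28.1, 37.4 and 33.9 at 72 h. The 0 h libraries were spread widely and the 72 h libraries lay below all others. It fell by 0.74 at 72 h on the log2 scale (SE 0.168, adjusted p 0.000194) and was at -0.11 at 6 h (adjusted p 0.75).

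Inside loop29677 lies another solitary loop that fell, loop29678, which spans 40 kb. The gene ends in its anchors include, but are not limited to, those of NBR1, an autophagy receptor gene, and TMEM106A, a membrane protein gene. Loop29678 gave 101, 103, 103 and 98.9 normalized contacts at 0 h, 89.2, 74.8, 83.5 and 66.4 at 6 h, and 71.7, 66.3, 68.6 and 75.9 at 72 h. All treated libraries lay below all at 0 h. On the log2 scale the loop was at -0.36 at 6 h (adjusted p 0.0497, next to the threshold) and -0.52 at 72 h (SE 0.121, adjusted p 0.000335).

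Loop32237 on chromosome 21 fell early and stayed low. Both anchors lie in gene bodies, of GET1, which inserts tail-anchored proteins into the endoplasmic reticulum, and of LCA5L, a lebercilin-like gene. It had 190, 180, 177 and 183 normalized contacts at 0 h, 132, 123, 127 and 129 at 6 h, and 128, 117, 111 and 121 at 72 h. Every treated library was below every 0 h library, and the 2 treated times overlapped. Log2 fold changes were -0.52 at 6 h (SE 0.101, adjusted p 0.000232) and -0.61 at 72 h (SE 0.0997, adjusted p 2.4e-07), and -0.10 between them (adjusted p 0.555).

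Loop19781 lies with both anchors at MIGA2, a gene of mitochondrial fusion, 40 kb apart. Values were 164, 137, 179 and 181 normalized contacts at 0 h, 126, 117, 139 and 125 at 6 h, and 111, 107, 106 and 114 at 72 h. The highest 6 h library lay above the lowest at 0 h, and 72 h lay below both. Changes were -0.38 at 6 h (adjusted p 0.0128) and -0.58 at 72 h (SE 0.104, adjusted p 2.73e-06).

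Loop29549 has both anchors at CRLF3, a cytokine receptor-like gene whose promoter is printed above. It had 115, 90.2, 117 and 115 normalized contacts at 0 h, 106, 90.6, 92.0 and 98.9 at 6 h, and 74.3, 76.3, 74.9 and 72.3 at 72 h. The 72 h libraries were tightly grouped below the rest, and 0 h replicate 2 stood apart from the other 0 h libraries. The log2 change was -0.17 at 6 h (adjusted p 0.434) and -0.55 at 72 h (SE 0.119, adjusted p 9.41e-05).

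Loop16982 on chromosome 7, with ZNF746, a zinc-finger gene, 2.19 kb from one anchor, went from 56.5 ± 3.33 normalized contacts at 0 h (SD, n = 4) through 51.3 ± 6.00 at 6 h (SD, n = 4) to 34.4 ± 1.86 at 72 h (SD, n = 3; log2 fold change -0.68, adjusted p 0.000249). The 72 h libraries lay below all at 0 h, and the loop did not pass the threshold at 6 h.

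Of the 25 loops that fell, the 12 without a gene end in an anchor include loop21813 at CELF1, a splicing regulator gene (log2 -0.35). A promoter of CELF1 did lie in an anchor of loop21813, at a start that is not an outer end of the gene. Those with gene ends include loop26624 at BAZ1A, a chromatin remodelling gene, and SRP54, of the signal recognition particle (log2 -0.51). Others are loop32126 at SOD1, superoxide dismutase (-0.44), loop29885 at CCDC47, DDX42 and FTSJ3 (-0.42), and loop29208 at MNT, SGSM2 and METTL16 (-0.33). These were named after their values were seen. Loop33865 on X had the lowest log2 fold change of all, -0.83 (adjusted p 0.00874), from 22.7 to 11.7 normalized contacts, with 72 h and 0 h libraries that overlapped. Loop16251, which also fell (-0.43), joins ZP3 to POMZP3, which carries a copy of part of ZP3. Reads there may be split between near-identical sequences, so its value is uncertain. Its normalized contacts were 70.3, 74.0, 167 and 115 at 0 h and 63.7, 79.3, 91.5 and 68.7 at 72 h. The fall lay in replicates 3 and 4, while replicates 1 and 2 had similar levels at these times.

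The comparison at 6 h addressed the early response. Here 11 of the 105 tested solitary loops changed (10.5%, where 6.41% of all tested loops changed), of which 4 rose (3.81%, where 2.34% of all did) and 7 fell (6.67%, where 4.07% of all did). The count rests on few loops: leaving out 0 h replicate 1 gave 5, leaving out replicate 2 of 6 h gave 6, leaving out its replicate 3 gave 7, and it was 5 with the length offset and 6 with DESeq2. Within replicates 1 and 2 alone 4 changed, and within replicates 3 and 4 alone 2 changed. All 7 that fell were up to 100 kb long, and 6 of them had a gene end in an anchor. Over all tested loops, 463 of the 981 that fell at 6 h were up to 100 kb long and 507 had a gene end in an anchor. Loops up to 100 kb are 35.2% of the tested solitary loops and 13.7% of all tested loops.

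Loop13796 on chromosome 6 had the highest fold at 6 h. It spans 660 kb, has MMUT, the methylmalonyl-CoA mutase gene, as nearest gene end at 90.4 kb, and gave 4.35, 6.65, 2.51 and 7.96 normalized contacts at 0 h, 16.7, 9.35, 18.4 and 8.44 at 6 h, and 6.19, 12, 5.20 and 12.5 at 72 h. All 6 h libraries lay above all at 0 h by a small margin, and 72 h overlapped both. Raw counts were 2 to 7 at 0 h and 7 to 17 at 6 h. At 0 h, 0 of 4 libraries reached the level of the filter, so the loop was tested only through times at which it is higher. The log2 fold change was 1.26 at 6 h (SE 0.378, adjusted p 0.025) and 0.74 at 72 h (adjusted p 0.139). The call was lost with the length offset (adjusted p 0.0613) and without each of 4 libraries (0.0876 to 0.126), and DESeq2 gave it no adjusted p.

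Loop4082, which reaches into ARHGEF4, a guanine nucleotide exchange factor gene, gave 59.4, 45.6, 64.0 and 62.5 normalized contacts at 0 h, 80.4, 80.4, 80.7 and 73.6 at 6 h, and 91.1, 87.3, 84.2 and 75 at 72 h. Treated libraries were all above 0 h. In log2 terms it rose by 0.46 at 6 h (adjusted p 0.0246) and by 0.55 at 72 h (adjusted p 0.000379). Its 6 h call was lost with DESeq2 (adjusted p 0.0916) and without each of 5 libraries (0.0553 to 0.141).

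Loop14288 joins the SYNCRIP promoter, that of an RNA-binding protein gene, to an anchor 30 kb away. It gave 199, 174, 193 and 169 normalized contacts at 0 h, 150, 108, 150 and 139 at 6 h, and 147, 149, 142 and 141 at 72 h. All treated libraries lay below all at 0 h. The log2 fold change was -0.44 at 6 h (SE 0.102, adjusted p 0.00219; 0.0912 with the length offset) and -0.35 at 72 h (adjusted p 0.00289).

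Loop31099 at ATF5, a bZIP transcription factor gene, went from 138 ± 6.77 normalized contacts at 0 h (SD, n = 4) to 106 ± 5.19 at 6 h (SD, n = 4; log2 fold change -0.38, adjusted p 0.0188) and was at 118 ± 16.8 at 72 h (SD, n = 3; adjusted p 0.0668). Its 6 h call was lost with the length offset (adjusted p 0.168), without 6 h replicate 2 (0.0505) and without 0 h replicate 1 (0.0719). The libraries of 6 h lay below those of 0 h, and 72 h overlapped both. Loop28258 at CHD2, a chromatin remodeller gene, was past the threshold at both times, at -0.37 and -0.36.

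Set side by side, 9 solitary loops were past the threshold at both 6 h and 72 h, all in the same direction, 2 at 6 h alone and 28 at 72 h alone. These comparisons share the 0 h libraries, so a like direction is no independent evidence. No loop that changed at 6 h changed back between 6 h and 72 h by the test, and 59 of the 105 passed in none of the 3 comparisons.

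Between 6 h and 72 h, 24 of the 105 changed (22.9%, where 20.5% of all tested loops changed), of which 14 rose (13.3%, where 10.7% of all did) and 10 fell (9.52%, where 9.81% of all did). DESeq2 called 10, and without 6 h replicate 1 the count was 15. Within replicates 1 and 2 alone 6 rose and 6 fell, and within replicates 3 and 4 alone 5 rose and 4 fell. All 8 of the changed loops more than 100 kb from a neighbour rose, and of the 16 nearer ones 6 rose. Of the 24, 7 passed in this comparison alone.

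Loop19405 on chromosome 9, between SPATA31D family genes and 750 kb from any other anchor, was among these. It gave 12.3, 17.1, 31.4 and 17.1 normalized contacts at 0 h, 9.80, 11.2, 11.3 and 18.1 at 6 h, and 23.9, 23.1, 25.0 and 25.9 at 72 h. The 72 h libraries lay above those of 6 h, while 0 h overlapped both. The log2 difference from 6 h to 72 h was 0.97 (SE 0.256, adjusted p 0.00301), against 0 h it was 0.42 (adjusted p 0.144). The SPATA31D genes are near-identical copies, so its reads may be split between them and the value is uncertain.

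Among loops whose 6 h and 72 h libraries did not overlap, the largest losses after 6 h, beside loop29677 and loop16982, were at loop28375 and loop28937. Loop16251, the uncertain loop at ZP3 and POMZP3, fell further (log2 difference -0.76, adjusted p 1.76e-05) with libraries that overlapped. Most of this fall lay in replicates 3 and 4, which had 188 and 175 normalized contacts at 6 h and 91.5 and 68.7 at 72 h. Replicates 1 and 2 had 88.2 and 81.3 at 6 h and 63.7 and 79.3 at 72 h. Loop28375 ends at JPT2 and MAPK8IP3, the latter a scaffold gene of JNK signalling, and went from 28.8 ± 2.59 normalized contacts at 6 h (SD, n = 4) to 18.7 ± 1.41 at 72 h (SD, n = 3, log2 difference -0.62, adjusted p 0.0331). Its 72 h libraries were spread more widely than this SD, at 20.3, 18.1, 11.4 and 24.1. The call of loop28375 was lost with DESeq2 (adjusted p 0.128) and without each of 4 libraries (0.0639 to 0.143). Loop28937, between the gene bodies of ST3GAL2, a sialyltransferase gene, and FCSK, the fucokinase gene, went from 145 ± 13.7 to 110 ± 7.65 (log2 -0.41, adjusted p 0.00321).

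The most contacted solitary loop was loop32365 on chromosome 22, between the gene bodies of YPEL1 and PPM1F, a protein phosphatase gene. It had 448, 417, 395 and 416 normalized contacts at 0 h, 423, 439, 460 and 471 at 6 h, and 346, 361, 354 and 338 at 72 h, with every 72 h library below all others. The log2 fold change at 72 h was -0.27 (SE 0.0781, adjusted p 0.00443). Its 0 h level, not corrected for copy number, was 11.3 times the median of loops of its length. Loop2056 at ZNF697 was next to loop14288 and loop32237 among the 4 highest, with a mean of 167 ± 8.99 before treatment (SD, n = 4) and 182 ± 5.35 after 72 h (SD, n = 3), and did not pass the threshold (adjusted p 0.416).

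Loop16211 on chromosome 7 was the longest solitary loop at 5290 kb and the only one over 1600 kb that passed the filter. Its normalized contacts were 47.8, 41.8, 70.3 and 91.0 at 0 h, 31.4, 44.9, 94.8 and 79.6 at 6 h, and 54.8, 31.1, 73.8 and 51.8 at 72 h. At 0 h and 6 h replicates 3 and 4 were above replicates 1 and 2, and times overlapped (adjusted p 0.374 at 72 h). Its 0 h level was 51.1 times the median of loops of its length, and the nearest gene ends are those of SPDYE21 and TYW1B, members of duplicated families, so its reads may be split between copies. The next longest tested, loop30294 at 970 kb, had 13.3 ± 2.40 at 0 h (SD, n = 4) and did not pass (adjusted p 0.296). Loop28520, 730 kb from any other anchor, went from 31.7 ± 1.92 before treatment (SD, n = 4) to 24.0 ± 5.14 after 72 h (SD, n = 3; adjusted p 0.163).

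Solitary loops held a small share of loop contacts. The mean share was 0.619% ± 0.00589 (SD, n = 4) before treatment, 0.611% ± 0.00306 after 6 h (SD, n = 4) and 0.597% ± 0.0115 after 72 h (SD, n = 3). The 72 h libraries were at 0.598%, 0.608%, 0.581% and 0.59%, all below the lowest 0 h library at 0.612%. The difference of 72 h from 0 h had p 0.0571 in a two-sided exact permutation test, the smallest this design allows, and 0.137 after Benjamini-Hochberg adjustment over the family of 6. At 6 h against 0 h it was p 0.0857 (exact permutation test, smallest possible 0.0286) and at 72 h against 6 h p 0.114, each 0.137 adjusted. The direction turned with the isolation distance: for the 67 loops more than 100 kb from a neighbour, the share differed by 0.0175 percentage points at 72 h and 0.00107 at 6 h from that at 0 h.

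Over the same times, the share of contacts in loops of at least 400 kb was 18.7%, 20.8% and 22% over the whole list, and short loops make up most solitary contacts. Taken within length classes, the solitary share was 0.741% ± 0.00486 (SD, n = 4) before treatment, 0.745% ± 0.00709 after 6 h (SD, n = 4) and 0.729% ± 0.00905 after 72 h (SD, n = 3), with p 0.114 for 72 h against 0 h (exact permutation test, 0.137 adjusted). The difference of 72 h from 0 h in the plain share was -0.0132 percentage points in replicates 1 and 2 and -0.0367 in replicates 3 and 4. Within solitary loops, those up to 200 kb held 72.3% of contacts at 0 h, 69.5% at 6 h and 68.5% at 72 h, and those of at least 400 kb held 9.39%, 10.8% and 11.7%.

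**Figure D5:**
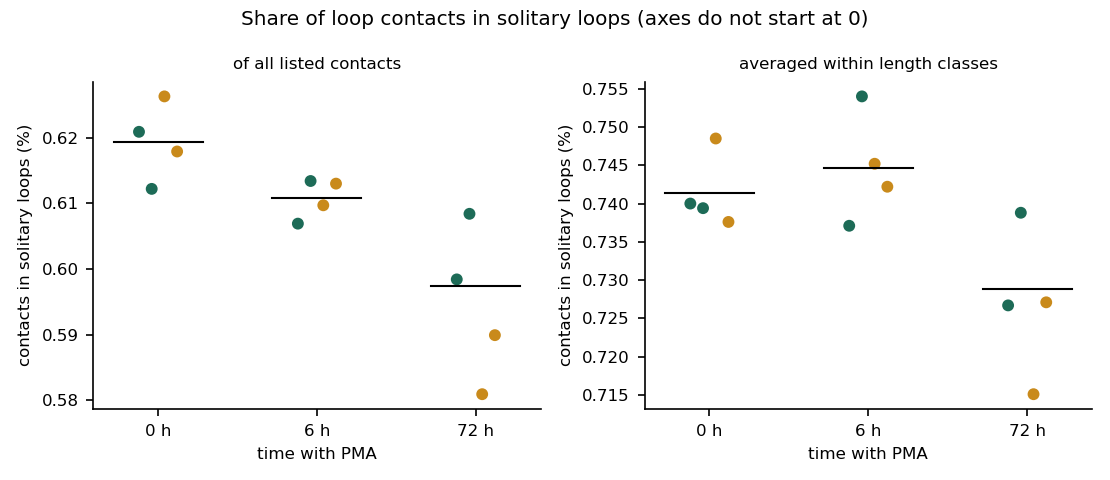
Percent of contacts that lay in solitary loops in each library, of all listed contacts (left) and within length classes (right); green points are replicates 1 and 2, yellow points replicates 3 and 4, and lines are means. The axes do not start at 0. On the left, means go from 0.619% to 0.611% and 0.597%.

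The authors' deposited table, which gives each loop a class, named 4 solitary loops as gained (loop3977, loop17115, loop20339 and loop29009), 0 as lost and 209 as static. In the authors' deposited table, 17 solitary loops had an adjusted p under 0.05, in a column labelled for 6 h, and 89 had a filled log2 value. The label alone does not settle whether that adjusted p covers 6 h or the whole time course. The 4 gained loops are among the 12 that rose here.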

How the data were processed

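The authors deposited 1 table of raw contact counts per loop in 30 columns, per the file headers, together with their own log2 fold changes, adjusted p-values and other columns such as anchor starts. Juicer 1.5.6, DESeq2 and the build hg38 are named in the submitters' processing notes without their roles, and the loop caller is not given in the sources used here. Deposited starts count from 0 and are printed from 1. Columns were summed into 12 libraries. A count includes the local background of its pixel and was not corrected for copy number.

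Counts of all loops were tested in 1 model with edgeR 4.0.16 in R 4.3.3 (filterByExpr with minimum count 10 and minimum total 15, TMM, quasi-likelihood test, Benjamini-Hochberg over 24132 loops, threshold 0.05). Log2 fold changes are those of the fit (prior count 0.125), and their standard error is the change over the root of F. Shares were compared with exact permutation tests. Same-numbered replicates correlated weakly in their deviations, at 0.0146 to 0.124. The highest correlation with another number was -0.019 to 0.0441. It exceeded the same-number value only for replicate 3 at 6 h against 0 h. Some shared structure by replicate number is therefore possible. The main fit was unpaired, and counts with the replicate number as a block are given below. Gene names and promoters come from RefSeq GRCh38.p14 tables, the build of hg38.

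Loops given with values in each library were the 8 and 8 with the largest changes at 72 h, and 4 and 4 in the other comparisons, among loops past the threshold whose libraries do not overlap, then the 4 highest at 0 h, the 2 longest and the 3 most isolated that were tested. Of these, 2 loops that fell are not reported here. The members and gene lists were chosen with earlier results of these data known. Alternatives covered scaling, filter, length offset, DESeq2 1.42.0, replicate block, a term for replicates 1 and 2 against 3 and 4, isolation distance and each library left out.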

Additional observations from a re-analysis of the deposited data

Results flagged for a closer look

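In 3 loops described above, 1 of the 4 libraries of a time lay far from the other three by Dixon's criterion, among 62 groups of 4 examined, where chance alone picks about 1 in 20. Loop17115 at 6 h had 27.7 normalized contacts in replicate 4, below 36.8 to 38.3 in the rest. Loop29549 at 0 h had 90.2 in replicate 2, below 115 to 117 in the rest. Loop4082 at 6 h had 73.6 in replicate 4, below 80.4 to 80.7 in the rest. In each case the library that stands apart is the lowest, and the cause was not tested.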

How the results depend on the processing

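Of the 105 tested solitary loops, the number changed at 6 h (11) was 5 with the length offset, 6 with DESeq2, 4 within replicates 1 and 2, 2 within replicates 3 and 4, 2 at a fold of at least 1.5, and 3 of 33 for isolation over 100 kb; it ranged from 5 to 10 with 1 library left out. The number changed at 72 h (37) was 26 with DESeq2, 21 in each of these 2 sets of libraries and 15 at a fold of at least 1.5. It was 13 of 33 tested for isolation over 100 kb and 57 of 154 tested for isolation at 50 kb or more. With 1 library left out it ranged from 31 to 38. The number changed between 6 h and 72 h (24) was 10 with DESeq2, 12 and 9 in the 2 sets, 13 at a fold of at least 1.5 and 8 of 33 for isolation over 100 kb; it ranged from 15 to 25 with 1 library left out.

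The solitary share of contacts turned direction for isolation over 100 kb, to 0.00107 percentage points at 6 h against 0 h, 0.0175 at 72 h against 0 h and 0.0164 at 72 h against 6 h, and within length classes to 0.0254 and 0.0217 for the latter 2 comparisons. It passed 0.05 unadjusted for isolation at 50 kb or more (-0.0163 at 6 h, exact permutation p 0.0286) and with 72 h replicates 3 and 4 as separate samples (-0.0249 at 72 h, exact permutation p 0.0286). Within replicates 3 and 4 it was -0.0367 at 72 h against 0 h, -0.0259 against 6 h, and -0.022 within length classes at 72 h against 0 h. The cause of these shifts was not tested.

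With the replicate number as a block, 13, 39 and 25 loops changed in the 3 comparisons, and the share differed by -0.0249 percentage points at 72 h (exact permutation p 0.125). Other scalings, a term for the 2 sets and no filter kept these counts within 1.5 times. Loops that met the rule for naming were followed through the length offset, DESeq2, total count scaling, the replicate block and each library left out. Under at least 1 of these, 4 of 7 lost their 6 h call, 2 of 16 their 72 h call and 1 of 8 their call between 6 h and 72 h. Fits within replicates 1 and 2 and within replicates 3 and 4 were not part of this count. In them, only 4 and 2 of the tested solitary loops changed at 6 h. Depth limits the long solitary loops most: 108 of 213 were too low for a test.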
